A study of Mus musculus with 16 samples.

Results

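Erythroblasts without *Nprl3* were compared with wild-type erythroblasts at S1, the earlier of the 2 stages sorted from mouse foetal liver. All the expressed genes of the RNA-seq count table were described in 2 *Nprl3*-/- and 4 wild-type libraries, which are 6 of the 16 libraries in the series. The other libraries came from heterozygotes and from the later stage, S3, at which the Ter119 marker of maturing red cells is present together with CD71, the transferrin receptor. Livers were taken at E13.5 on a C57BL/6J background, cells were sorted by Ter119 and CD71, and each library came from 1 embryo.

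The wild-type S1 libraries were from embryos 0 and 8 (male) and embryos 1 and 5 (female). The *Nprl3*-/- libraries were from embryo 2 (female) and embryo 9 (male). Knockout embryos carried a germline deletion of the *Nprl3* promoter in every tissue, with the intronic α-globin enhancers intact, and homozygotes die before birth. The S1 libraries of the 2 heterozygous (Het) embryos, 3 and 4 (both male), are given as values beside the comparison and entered no test of it. Total counts per S1 library ran from 23331156 to 32131347 in wild-type, from 31213515 to 32395199 in *Nprl3*-/- and from 27044302 to 36035368 in Het.

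*Nprl3* is a subunit of GATOR1, the complex that switches off the Rag GTPases when amino acids are scarce and so holds back mTORC1, the kinase that drives protein, lipid and nucleotide synthesis. GATOR2 and the KICSTOR scaffold act on GATOR1, and the Sestrin and Castor proteins report leucine and arginine to GATOR2. mTORC1 raises ATF4, the transcription factor of amino acid synthesis and uptake. *Nprl3* lies beside the α-globin genes, whose enhancers sit in its introns, and S1 erythroblasts are cells that have begun to take up iron and make haem but carry little globin.

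In *Nprl3*-/- S1 erythroblasts the *Nprl3* transcript was nearly lost, and it was the 1 gene of 14039 (0.00712%) that passed the correction over all genes. Beside it, genes of the interferon response were higher: both *Nprl3*-/- libraries exceeded every wild-type library in 50 of 81 members of that list tested, against 6.85% of all genes. Of 32 targets of ATF4 tested, 11 also stood above every wild-type library, among them *Trib3*, *Chac1*, *Cth* and *Slc7a3*, and the list's median log2 fold change was 0.24. The α- and β-globin genes were lower against all 4 wild-type libraries together, with *Nprl3*-/- embryo 9 close to wild-type embryos 1 and 5.

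The sorted cells carried the transcripts of early erythroblasts. Counts are given here as normalized counts, that is, counts scaled to a common library size by the trimmed mean of M-values (TMM). The receptor *Kit* lay between 2309 and 5125 in wild-type and at 2884 and 3599 in *Nprl3*-/- embryos 2 and 9, and the transferrin receptor *Tfrc* between 14442 and 29726 in wild-type and at 10001 and 15851 in *Nprl3*-/-. The erythroid transcription factors differed little: *Gata1* had 13915 and 12258 normalized counts in *Nprl3*-/- against 12129 to 14814 in wild-type, and *Klf1* had 22470 and 19554 against 17199 to 24318. Some sample labels name an embryonic stem cell line, yet of 4 listed genes that mark such cells 0 were abundant enough to be tested. Among them *Pou5f1*, *Sox2* and *Zfp42* had 0 reads in all 8 S1 libraries.

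The wild-type S1 libraries fell apart into a pair from the male embryos 0 and 8 and a pair from the female embryos 1 and 5, and the *Nprl3*-/- libraries lay nearer to the female pair on the leading principal component and in the neutrophil markers. The leading principal component, with 57.8% of the variance, placed embryos 0 and 8 at −37.5 and −56.6, embryos 1 and 5 at 20.7 and 10.5, and *Nprl3*-/- embryos 2 and 9 at 31.2 and −3.41. Markers of neutrophil precursors, a list of 11 genes, summed to 8455 and 5013 normalized counts in embryos 0 and 8, to 55138 and 47140 in embryos 1 and 5, and to 66513 and 71520 in *Nprl3*-/- embryos 2 and 9. Most of it was *Mpo*, the granule peroxidase, and *Ly6g*, the marker of mature neutrophils, had 0 reads in all 8 libraries. Mast cell and basophil markers summed to 363 to 2322 in wild-type and to 4862 and 3639 in *Nprl3*-/- embryos 2 and 9, macrophage markers to 1325 to 2511 and to 3127 and 3232. The macrophage sum in *Nprl3*-/- was mostly *Lyz2*, at 2190 and 1955, a lysozyme gene that other myeloid cells also express. Of the 14 macrophage markers tested 9 had a log2 fold change below 0, with a median of −0.34.

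Hepatoblast markers went the other way, from 2829 to 15770 in wild-type with the highest sums in embryos 0 and 8, and were 1646 and 8029 in *Nprl3*-/-. Markers of primitive erythroid cells ran from 149 to 3603 in wild-type and were 85.2 and 1254 in *Nprl3*-/-. As the median over each list of log2(normalized count + 1) relative to the wild-type mean, *Nprl3*-/- embryo 9 was at 1.59 in the primitive erythroid list, with wild-type embryos 0 and 8 (1.53 and 2.85) and not with embryos 1 and 5 (−1.88 and −2.50), and at 0.10 in the hepatoblast list, between the pairs (1.06 and 0.95, and −1.26 and −0.78). *Nprl3*-/- embryo 2 was below both pairs in these lists, at −3.63 and −2.08. Lymphoid markers summed to 277 to 2528 in wild-type and 2497 and 2387 in *Nprl3*-/-, with *Cd3e*, *Dntt* and *Ncr1* at 0 reads throughout. Megakaryocyte sums, 1565 and 3893 in *Nprl3*-/- against 1699 to 3174, and endothelial sums, 226 and 377 against 228 to 401, overlapped between the genotypes.

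The globin genes took 1.07% and 1.00% of all counts in wild-type embryos 0 and 8, 0.184% and 0.290% in embryos 1 and 5, and 0.0738% and 0.306% in *Nprl3*-/- embryos 2 and 9. Within wild-type, sex and this split cannot be told apart. Both Het embryos, 3 and 4, are male, but their libraries lay nearer to the female wild-type pair in these measures. Their neutrophil marker sums were 63704 and 64204, their hepatoblast sums 2038 and 1349, and their globin shares 0.104% and 0.137%. The source of the split was not tested. The part of the other cell types in the results below was not tested beyond the values given. Fewer cells of a type and less RNA per cell cannot be told apart in such libraries. The main results are therefore given against all 4 wild-type libraries and also against each pair.

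**Figure D1:**
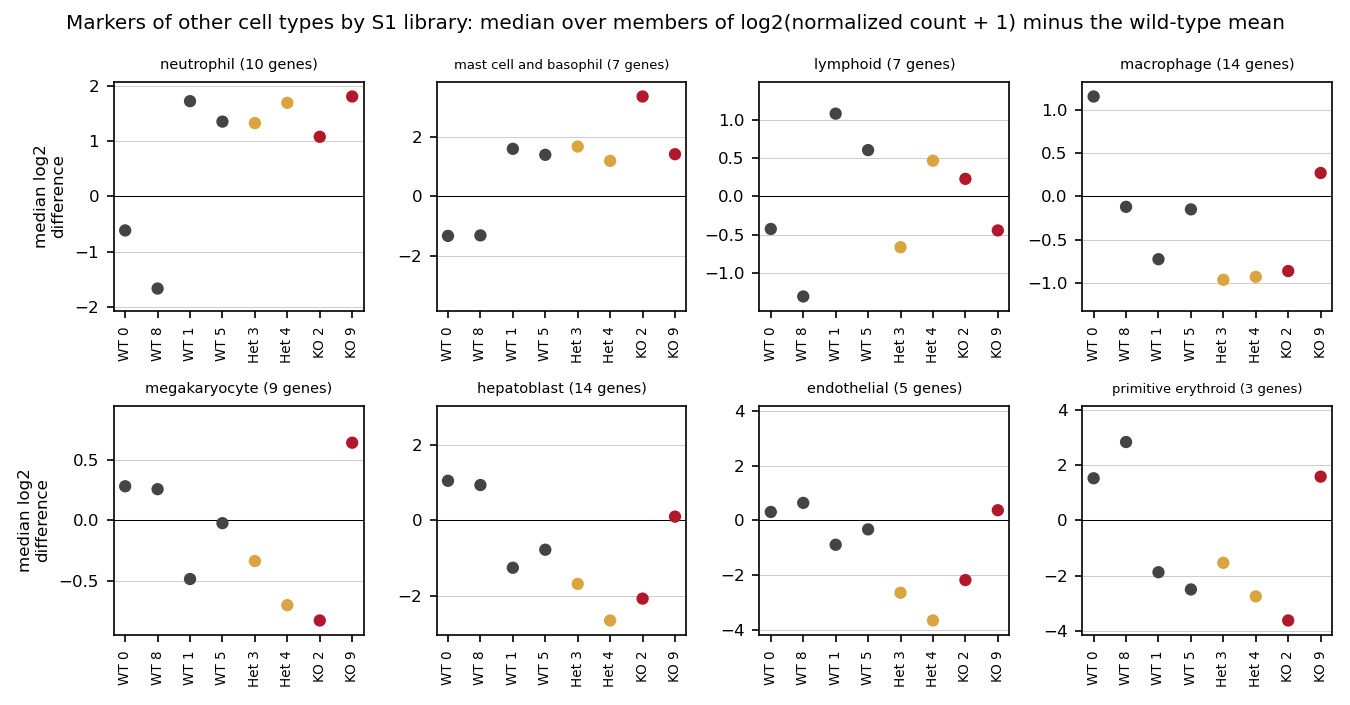
Levels of cell type marker lists in the 8 S1 libraries, as each library's median over the list of log2(normalized count + 1) minus the wild-type mean, with wild-type in dark grey, Het in ochre and *Nprl3*-/- in red. Wild-type embryos 0 and 8 stand apart from embryos 1 and 5 in the neutrophil, hepatoblast and primitive erythroid lists, and both *Nprl3*-/- libraries lie near embryos 1 and 5 in the neutrophil list, while in the primitive erythroid list embryo 9 lies with embryos 0 and 8.

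The DNA upstream of the genes that carry the result is shown from the RefSeq promoter table for GRCm38.p6, a build other than that of the counts. The stretch just upstream of the *Nprl3* start is shown because the knockout removes this promoter, although the ends of the deletion were not compared with it. Neither motif searched is in it.
Nprl3 (chr11:32267708-32267907, minus strand): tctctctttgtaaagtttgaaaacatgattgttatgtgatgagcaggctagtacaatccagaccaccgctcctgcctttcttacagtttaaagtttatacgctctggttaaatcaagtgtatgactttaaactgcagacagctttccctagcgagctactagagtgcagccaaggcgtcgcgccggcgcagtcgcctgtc

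Promoters of interferon-stimulated genes often hold a pair of GAAA blocks, the element bound by the transcription factors that interferons activate. The motif GAAA, any 2 bases, GAAA was searched on both strands of windows from 250 bases before to 50 after the start. It was found for 3.99% of all 27025 gene symbols and for 34 of the 63 matched interferon-stimulated genes tested here (54.0%). Those 34 had a median log2 fold change of 1.495, and the other 29 one of 0.95. The 6 shown are members named below, in order of p, with every match in capitals, overlapping matches run together.
Oas1g (chr5:120887614-120887670, minus strand): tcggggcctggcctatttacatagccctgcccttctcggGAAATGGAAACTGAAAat
Isg15 (chr4:156200830-156200929, minus strand): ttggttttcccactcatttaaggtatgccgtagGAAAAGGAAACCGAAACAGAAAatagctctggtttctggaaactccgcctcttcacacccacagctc
Gbp7 (chr3:142530238-142530335, plus strand): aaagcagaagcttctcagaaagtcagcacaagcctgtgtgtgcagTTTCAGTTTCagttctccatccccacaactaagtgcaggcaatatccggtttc
Igtp (chr11:58199477-58199555, plus strand): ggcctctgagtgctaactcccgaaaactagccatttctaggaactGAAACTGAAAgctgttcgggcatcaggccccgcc
Ddx60 (chr8:61928023-61928086, plus strand): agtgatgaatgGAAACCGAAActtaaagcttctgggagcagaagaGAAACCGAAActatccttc
Tgtp2 (chr11:49064228-49064327, minus strand): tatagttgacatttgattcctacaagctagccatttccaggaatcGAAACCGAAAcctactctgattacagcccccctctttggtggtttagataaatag

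The composite element of ATF4 with a C/EBP partner was searched as TGATGNAA, on both strands. It was found for 4.51% of all symbols and for 9 of the 28 matched ATF4 targets (32.1%), whose median log2 fold change was 1.02, against 0.18 for the other 19. The pair of GAAA blocks was found for 1 of these 28, and TGATGNAA for 5 of the 63 interferon-stimulated genes. *Chac1* is shown as an example chosen after its values were seen, with its match, on the reverse strand, in capitals. A match describes the letters in the window and not a bound site.
Chac1 (chr2:119351004-119351101, plus strand): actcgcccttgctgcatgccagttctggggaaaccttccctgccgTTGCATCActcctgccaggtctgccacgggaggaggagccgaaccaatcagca

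*Nprl3* checked the genotype labels of the 8 S1 libraries. The gene lies on mouse chromosome 11 from 32175628 to 32217707 on the minus strand (mm39). Its promoter is at the end that faces the α-globin genes. Its normalized count was 1135, 903, 979 and 1395 in wild-type embryos 0, 1, 5 and 8 (mean 1103 ± 217, SD, n = 4), 13.0 and 28.3 in *Nprl3*-/- embryos 2 and 9, and 512 and 532 in Het embryos 3 and 4. The *Nprl3*-/- libraries thus held 1.18% and 2.57% of the wild-type mean and the Het libraries 46.4% and 48.2%, with no overlap between any of the 3 genotypes. The log2 fold change of *Nprl3*-/- against wild-type was −5.72, with a standard error (SE) of 0.43 and an adjusted p of 0.0212 in edgeR's quasi-likelihood test, and no other gene was called. That call was lost when any of 4 of the 6 libraries was left out: the edgeR adjusted p was 0.152 without wild-type embryo 0, 0.0876 without wild-type embryo 5, 0.149 without *Nprl3*-/- embryo 2 and 0.136 without embryo 9, with log2 fold changes from −6.39 to −5.30. Without 1 of the *Nprl3*-/- libraries, only the wild-type libraries supply the spread, and the remaining one is assumed to vary as they do.

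At S3 the count of reads assigned to *Nprl3* was far less reduced. On a scale common to all 16 libraries, *Nprl3* stood at 691 to 996 normalized counts in wild-type at S1 and 4446 to 6215 at S3. In *Nprl3*-/- embryos 2 and 9 it went from 9.74 and 20.6 at S1 to 3256 and 3377 at S3, so at S3 both were again below all 4 wild-type libraries, with a log2 fold change of −0.55 (adjusted p = 0.381, edgeR). The effect of the knockout differed between the stages by 5.17 on the log2 scale (S3 minus S1, SE 0.41, adjusted p = 0.000305, edgeR interaction of genotype and stage), the 1 gene of 13485 called by that test, or 0.00742%. Reads from spliced enhancer transcripts that start within the gene would be counted as *Nprl3*, and their share was not measured here. The paper used a PCR assay specific to promoter-derived *Nprl3* mRNA on sorted S3 erythroblasts, and reports none detectable in *Nprl3*-/- cells.

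The neighbours of *Nprl3* were as follows, from the far side of the gene towards the α-globin genes. *Snrnp25*, a minor spliceosome subunit, had 2733 and 2410 normalized counts in *Nprl3*-/- against 1441 to 2758 in wild-type. *Mpg*, a DNA repair glycosylase whose span lies within that of *Nprl3* on the opposite strand, had 356 and 319 against 292 to 343, a log2 fold change of 0.13 (SE 0.21). The counting ignored strand and left out reads that overlapped exons of both genes, so a read from an intron of *Nprl3* that covers an exon of *Mpg* would be counted as *Mpg*. Neither gene passed the test, and both groups overlapped.

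The globin genes of the cluster were spread widely within wild-type. *Hba-a2*, an adult α-globin gene, had 23297, 4140, 6134 and 18704 normalized counts in wild-type embryos 0, 1, 5 and 8, 1521 and 4747 in *Nprl3*-/- embryos 2 and 9, and 2262 and 2699 in Het. The highest values belonged to wild-type embryos 0 and 8, and *Nprl3*-/- embryo 9 lay within the range of embryos 1 and 5. The log2 fold change of *Hba-a2* was −2.06 (SE 0.82) over all libraries, −0.72 against embryos 1 and 5 and −2.76 against embryos 0 and 8. *Hba-a1* was similar at −1.62, −0.33 and −2.30, and *Hbq1b*, a θ-globin gene, at −1.67, −0.07 and −2.42. *Hba-a1* and *Hba-a2* are near-identical copies, and reads that matched both were left out, so their counts rest on the reads that could be placed. *Hba-x*, the embryonic α-like gene, had a log2 fold change of −0.79, which turned to 2.83 against embryos 1 and 5 alone. *Rhbdf1* and *Hbq1a* were too low to be tested, at no more than 15.8 normalized counts.

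Across all 14039 genes the 2 genotypes were centred on each other, the median log2 fold change being −0.01, with 48.9% of genes above 0. An unadjusted p under 0.05 was reached by 355 genes (2.53%), of which 262 were higher and 93 lower in *Nprl3*-/-. Both *Nprl3*-/- libraries exceeded all 4 wild-type libraries in 961 genes (6.85%) and were below them in 469 (3.34%). When the Het libraries had to be cleared as well, 687 genes (4.89%) were higher and 270 (1.92%) lower. A single gene cannot reach p under 0.05 in an exact permutation test of 2 libraries against 4, whose smallest two-sided p is 0.0667.

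With sex as a covariate, which in wild-type also absorbs the split between the pairs, edgeR called 18 genes higher (0.128%) and 3 lower (0.0214%). Of the 18, 16 were interferon-stimulated genes: *Parp12*, *Oas1g*, *Isg15*, *Usp18*, *Dhx58*, *Gbp7*, *Lgals3bp*, *Igtp*, *Oasl2*, *Tgtp2*, *Oas1a*, *Irf7*, *Irgm1*, *Oasl1*, *Xaf1* and *Rtp4*. The other 2 were *Ndrg2*, of the N-myc downstream-regulated family, and *Trib3*, a pseudokinase induced by ATF4. All 18 had both *Nprl3*-/- libraries above all wild-type libraries. The 3 lower genes were *Nprl3*, *Hba-a2* and the adult β-globin gene *Hbb-bs*. DESeq2 with sex called 119 genes higher (0.882%) and 52 lower (0.385%), and these included all 21 genes called by edgeR with sex. The count depends on single libraries: edgeR with sex called between 5 and 134 genes higher when 1 library was left out, 5 without wild-type embryo 0, 9 without wild-type embryo 5, 8 without *Nprl3*-/- embryo 9 and 134 without *Nprl3*-/- embryo 2, and 1 to 6 lower. In the last 2 of these fits, too, the spread comes from wild-type alone.

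**Figure D2:**
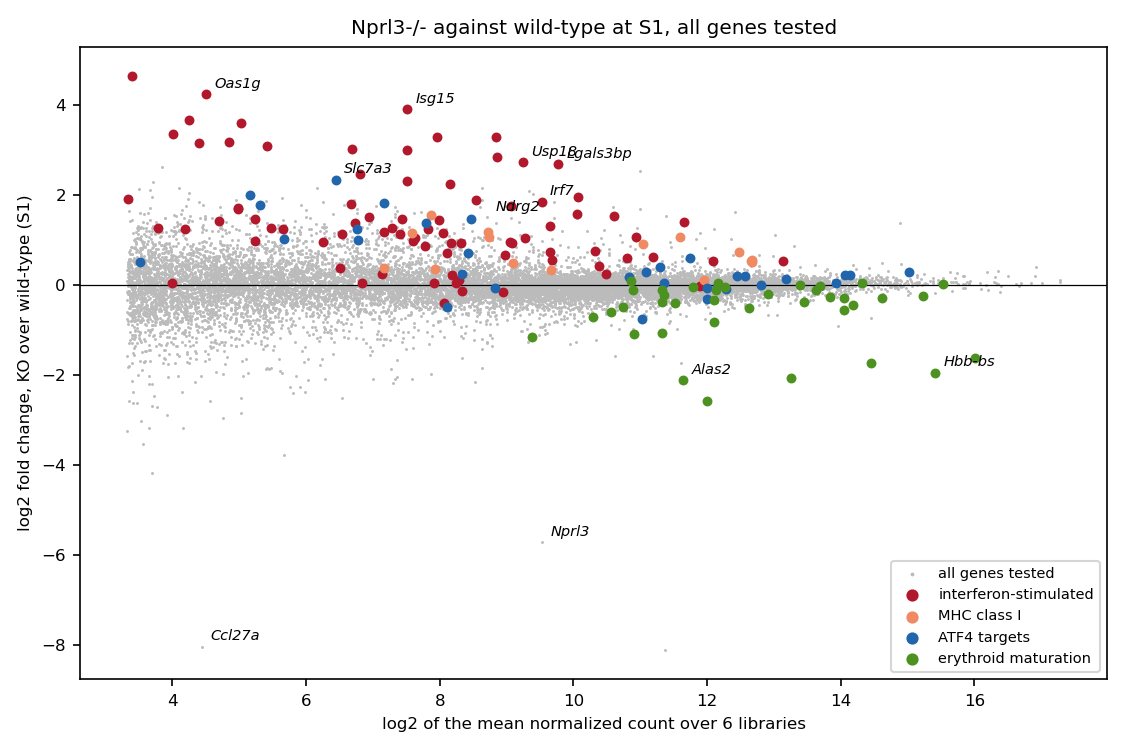
Log2 fold change of *Nprl3*-/- against wild-type at S1 for 14039 genes (y axis) against mean abundance (x axis, log2 of the mean normalized count over the 6 libraries). The interferon-stimulated genes lie mostly above 0, the globin genes below it, and *Nprl3* is at −5.72.

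The 10 genes of smallest p among those higher in both *Nprl3*-/- libraries were *Ndrg2*, *Parp12*, *Oas1g*, *Isg15*, *Cth*, *Tdrd7*, *Usp18*, *Parp9*, *Chac1* and *Fam174b*. *Ndrg2*, on chromosome 14 (mm39, 52142728 to 52151615), had 260, 274, 282 and 220 normalized counts in wild-type embryos 0, 1, 5 and 8, 778 and 704 in *Nprl3*-/- embryos 2 and 9, and 310 and 294 in Het. Its wild-type values were tight, and the difference was about the same against either wild-type pair. The log2 fold change of *Ndrg2* was 1.52 (SE 0.20, adjusted p = 0.402; with sex as a covariate adjusted p = 0.0430, edgeR), and 1.39 and 1.62 against embryos 1 and 5 and embryos 0 and 8. *Fam174b*, a membrane protein gene, had 589 and 484 in *Nprl3*-/- against 186 to 256 in wild-type and 228 and 201 in Het, a log2 fold change of 1.28 (SE 0.23) that did not pass the correction in edgeR with or without sex. At S3, tested in its own fit, the log2 fold change of *Ndrg2* was 2.99 (adjusted p = 0.000114) and that of *Fam174b* 0.51 (adjusted p = 0.865).

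Among the 10 lower genes of smallest p were *Nprl3*, *Ccl27a*, *Fam124a*, *Spry4*, *Rps26-ps1*, *Gm10044*, *Spon2*, *Tns1* and *Cyp4f39*, and of the 10 *Nprl3* alone passed the correction. *Ccl27a*, a chemokine gene with near-identical copies in the mouse genome, had 15.8 to 59.1 normalized counts in wild-type, no reads in either *Nprl3*-/- library, and 0 and 23.5 in Het embryos 3 and 4. Against a floor of 3 counts per library it was at least 10.9-fold lower, and 1 of the Het embryos lacked it as well. *Fam124a* had 208 to 396 in wild-type, 100.3 and 58.4 in *Nprl3*-/- and 290 and 232 in Het.

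*Spry4*, a feedback inhibitor of receptor tyrosine kinase signalling, had 43.8, 58.4, 67.4 and 59.7 normalized counts in wild-type embryos 0, 1, 5 and 8, 12.03 and 19.5 in *Nprl3*-/- embryos 2 and 9, and 79.5 and 48.2 in Het. Its log2 fold change was −1.85 (SE 0.40, adjusted p = 0.890, edgeR). *Tns1*, a focal adhesion protein gene, had 263 and 440.8 against 654 to 775, and *Spon2*, a secreted matrix protein gene, 80.2 and 74.4 against 154 to 206. *Rps26-ps1* and *Gm10044* are pseudogene or predicted loci whose reads may belong to other copies. *Cyp4f39* had 23.1 and 26.6 against 45.3 to 109.8. In the genes named here other than *Ccl27a* both Het libraries lay above both *Nprl3*-/- ones, although in *Nprl3*, *Gm10044* and *Tns1* they were also below every wild-type library.

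**Figure D3:**
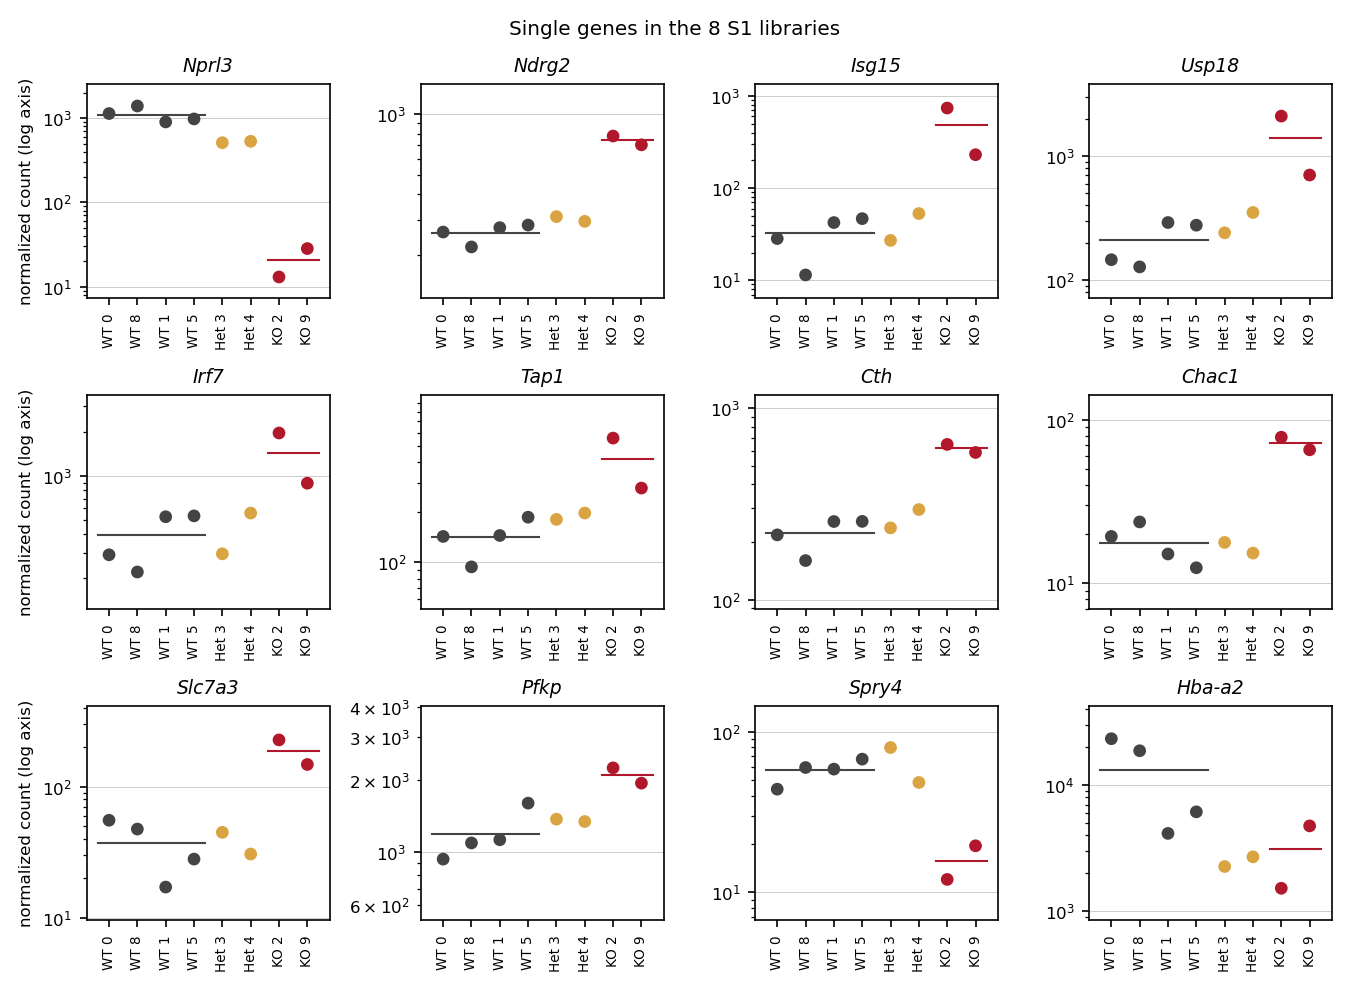
Normalized counts of 12 genes in each S1 library, 1 panel per gene with its own logarithmic y axis, wild-type in dark grey, Het in ochre, *Nprl3*-/- in red, and a line at each group's mean. In *Nprl3* the 3 genotypes form separate levels, in *Ndrg2*, *Isg15*, *Usp18*, *Irf7*, *Tap1*, *Cth*, *Chac1*, *Slc7a3* and *Pfkp* both *Nprl3*-/- points lie above all wild-type points, in *Spry4* below them, and in *Hba-a2* they overlap the wild-type points.

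Interferons are secreted in infection or when nucleic acids appear in the cytosol, bind receptors that act through JAK kinases and STAT factors, and induce a common set of antiviral genes. Of the 96 genes on the interferon-stimulated list, 81 were tested. Their median log2 fold change was 1.26 against −0.01 over all genes, 77 (95.1%) were above 0 against 48.9%, and 50 of 81 had both *Nprl3*-/- libraries above all wild-type libraries against 6.85% of all genes. The same 50 also cleared both Het libraries. An unadjusted p under 0.05 was reached by 46, against 2.53% of all genes, and 0 passed the correction in edgeR without a covariate. With sex 16 passed as higher in edgeR and 41 in DESeq2, against 0.128% and 0.882% of all genes. The 16 became 5 without wild-type embryo 0, 9 without wild-type embryo 5 and 7 without *Nprl3*-/- embryo 9. The 15 members not tested had at most 25.9 normalized counts.

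The list was higher against each wild-type pair and within each sex. The median log2 fold change was 0.91 against wild-type embryos 1 and 5, and 1.98 against embryos 0 and 8. Compared with embryos 1 and 5, the *Nprl3*-/- libraries held 1.35-fold as much of the summed neutrophil markers and 1.99-fold as much of the mast cell and basophil markers, whose library score was −1.33 and −1.32 in embryos 0 and 8, 1.61 and 1.41 in embryos 1 and 5, 1.69 and 1.204 in Het, and 3.38 and 1.43 in *Nprl3*-/- embryos 2 and 9. Embryo 2 was thus the highest in this score as in that of the interferon-stimulated genes, and the part of these cells in the result was not tested. Within females, embryo 2 against embryos 1 and 5, the median difference in log2(normalized count + 1) was 1.16 with 72 of 81 above 0, and within males, embryo 9 against embryos 0 and 8, it was 1.65 with 77 of 81. Over all genes these medians were 0.03 and 0.03. As a library score, the median over the list relative to the wild-type mean, the interferon-stimulated genes stood at −0.31 and −0.58 in embryos 0 and 8, 0.56 and 0.42 in embryos 1 and 5, −0.08 and 0.51 in Het, and 1.76 and 1.03 in *Nprl3*-/- embryos 2 and 9. The wild-type pairs thus differed as well, with both of embryos 1 and 5 above both of embryos 0 and 8 in 59 genes, and embryo 2 was above embryo 9 in 68.

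**Figure D4:**
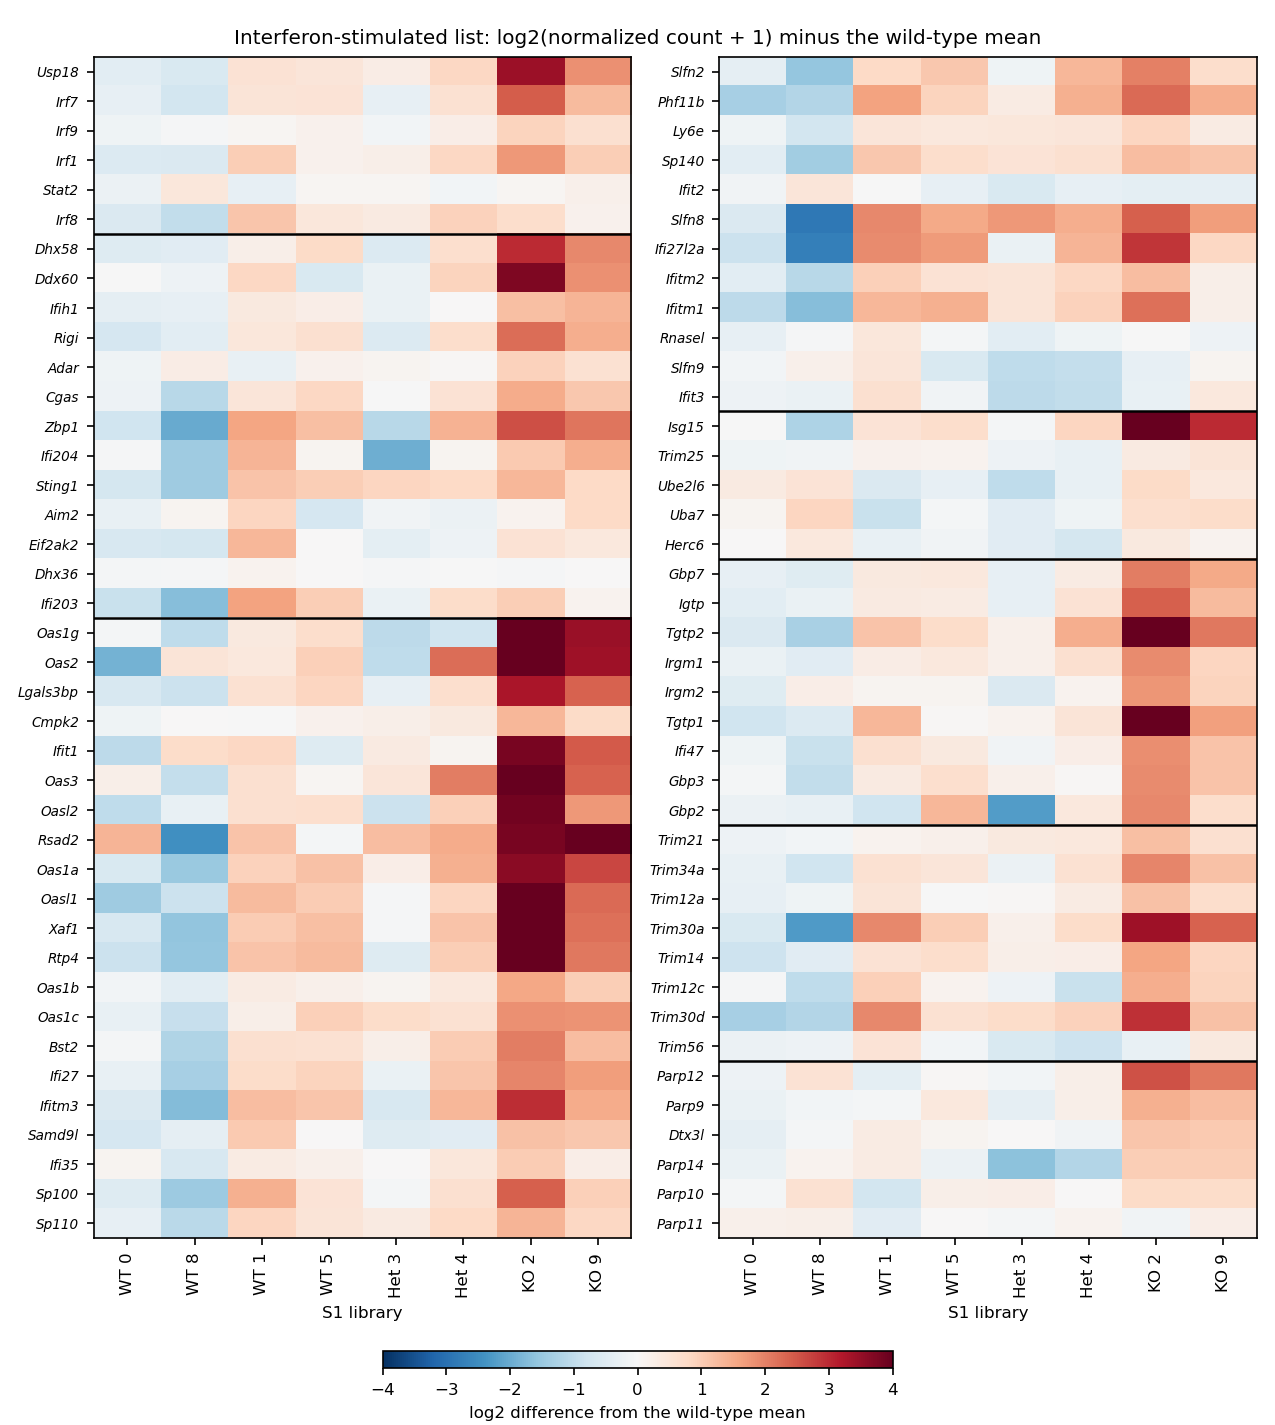
Tested interferon-stimulated genes (rows, by role, with lines between roles) in the 8 S1 libraries (columns), coloured by log2(normalized count + 1) minus the wild-type mean. The *Nprl3*-/- columns are the highest in most rows, embryo 2 mostly above embryo 9, and wild-type embryos 0 and 8 are mostly below embryos 1 and 5.

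The interferons themselves were not seen. All 8 ligand genes on the list had 0 reads in every S1 library, from which a low level in other cells of the liver cannot be judged. The 6 tested receptor and kinase genes had a median log2 fold change of 0.01: *Ifnar2*, a type I receptor chain, had 1963 and 1754 normalized counts in *Nprl3*-/- against 1616 to 1835 in wild-type, *Ifngr1*, the type II receptor chain, 8110 and 7598 against 4291 to 8442, and the kinase *Jak1* 3171 and 3351 against 2931 to 5000. In none of the 6 did both *Nprl3*-/- libraries lie beyond the wild-type range.

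Among the signalling members, 7 tested, the median was 1.16 and 4 did not overlap, all higher, against 6.85% of all genes. *Irf9*, a DNA-binding factor of the type I response, had 1901 and 1619 normalized counts in *Nprl3*-/- against 910 to 1157 in wild-type. *Stat2*, its partner, overlapped, with 317 and 344 against 238 to 410. *Irf7*, which amplifies the response, had 290, 526, 534 and 221 in wild-type, 1957 and 891 in *Nprl3*-/- and 294 and 558 in Het, and passed with sex as a covariate (adjusted p = 0.0165, edgeR).

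The sensors of foreign RNA and DNA and their regulators, 13 tested, had a median of 0.97 with 7 not overlapping above wild-type (6.85% of all genes). *Dhx58*, a regulator of RNA sensing, had 28.3 to 70.5 normalized counts in wild-type against 335 and 158 in *Nprl3*-/- and 27.9 and 65.9 in Het. *Ifih1*, the sensor of long double-stranded RNA, had 348 and 388 against 119 to 198 in wild-type, with embryo 9 the higher here. *Ddx60* had 82.2 and 21.2 against 3.11 to 10.1, and *Cgas*, a sensor of cytosolic DNA, 304 and 229 against 49.2 to 192. *Dhx58* passed with sex as a covariate, and *Ifih1* and *Ddx60* did not (edgeR adjusted p = 0.219 for *Ifih1* and 0.160 for *Ddx60*).

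The antiviral effectors, 33 tested, had a median of 1.42, with 19 not overlapping above wild-type and 1 below, beside 6.85% and 3.34% of all genes. *Oas1g* and *Oas2*, synthetases of the messenger that activates RNase L, were low without the knockout. *Oas1g* had 2.58, 4.03, 5.18 and 0.878 normalized counts in wild-type embryos 0, 1, 5 and 8, 82.2 and 40.7 in *Nprl3*-/- embryos 2 and 9, and 0.846 and 1.18 in Het, a log2 fold change of 4.24 (SE 0.59, adjusted p = 0.402, and 0.0165 with sex, edgeR). *Oas2* had 61.2 and 38.1 against 0 to 6.22 in wild-type and 0.846 and 16.5 in Het. *Lgals3bp*, a secreted glycoprotein, had 2623 and 1382 against 150 to 497, and *Rsad2*, an inhibitor of viral replication, 74.2 and 92.9 against 0 to 12.9. The 1 below was *Ifit2*, a share near that of all genes, with 219 and 224 against 228 to 400 in wild-type and 187 and 228 in Het, so it overlapped with Het, while its relative *Ifit1* had 102 and 39.8 against 2.58 to 12.1. The Oas1 genes are close copies of each other, so reads that matched several of them were left out of their counts.

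ISG15 is a ubiquitin-like protein attached to other proteins by its own enzymes. *Isg15* (chromosome 4, mm39, 156283912 to 156285253) had 28.3, 42.3, 46.6 and 11.4 normalized counts in wild-type embryos 0, 1, 5 and 8, 739 and 230 in *Nprl3*-/- embryos 2 and 9, and 27.1 and 52.9 in Het. Embryo 2 was above embryo 9, and both exceeded every other library. Its log2 fold change was 3.91 (SE 0.60, adjusted p = 0.610, and 0.00520 with sex, edgeR). The 5 members of this system had a median of 0.53, with 2 not overlapping (6.85% of all genes being higher in this way), *Isg15* and *Trim25*, a ligase, which stood at 1533 and 1701 against 1054 to 1361. The other 3 overlapped: *Ube2l6*, the conjugating enzyme, at 6162 and 4846 against 2430 to 5284, *Uba7*, the activating enzyme, at 1032 and 1071 against 346 to 1172, and *Herc6*, a ligase, at 171 and 144 against 105 to 175. *Usp18*, the protease that removes ISG15 and damps the receptor, was listed with the signalling genes and had 2107 and 704 against 127 to 291.

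The interferon-inducible GTPases, which act on vacuoles of intracellular pathogens, had a median of 1.47, with 8 of 9 tested not overlapping above wild-type, against 6.85% of all genes. *Gbp7* had 228, 379, 390 and 204 normalized counts in wild-type embryos 0, 1, 5 and 8, 1203 and 829 in *Nprl3*-/- and 228 and 365 in Het. *Igtp* had 988 and 461 against 140 to 245, and *Tgtp2* 1012 and 224 against 20.2 to 112. All 3 passed with sex as a covariate (edgeR adjusted p = 0.0165, 0.0203 and 0.00452), and reads that *Tgtp2* shares with its copy *Tgtp1* were left out.

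The TRIM ligases, 8 tested, had a median of 1.09 with 5 not overlapping, and the PARP genes with their partner, 6 tested, one of 1.01 with 5, where 6.85% of all genes were higher without overlap. *Parp12* had 65.7, 57.4, 77.7 and 112 normalized counts in wild-type embryos 0, 1, 5 and 8, 444 and 333 in *Nprl3*-/- and 70.2 and 89.4 in Het, with a log2 fold change of 2.31 (SE 0.32; adjusted p = 0.402, and 0.0450 with sex, edgeR). *Parp9* and *Dtx3l*, whose proteins form a complex, stood at 1432 and 1237 against 440.7 to 709 and at 974 and 921 against 349 to 570. *Trim21*, a cytosolic antibody receptor, had 942 and 641 against 356 to 469. *Trim34a* and *Trim12a*, which belong to a cluster of similar genes, had 276 and 161 against 40.4 to 107 and 491 and 354 against 173 to 312.

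At S3, fitted separately on the same embryos, 66 of the 81 members were tested too. Of these, 29 passed the correction as higher and 0 as lower (edgeR), against 0.457% and 0.102% of the 11804 genes of that fit, and their median log2 fold change was 1.94. Of these 66, 57 were above 0 in both stages. The difference between the stages was not called for any of 77 members in the interaction test (edgeR, lowest adjusted p = 0.968).

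Antigen presentation genes of MHC class I followed with smaller differences. All 15 tested of 19 were above 0, the median log2 fold change being 0.55, and 8 did not overlap, against 6.85% of all genes. The medians were 0.43 against wild-type embryos 1 and 5 and 0.84 against embryos 0 and 8. As a library score, the list stood at 0.93 and 0.39 in *Nprl3*-/- embryos 2 and 9 and at 0.27 and 0.44 in Het. In wild-type it ran from −0.55 to 0.34, so embryo 9 was close to wild-type embryo 5 and below Het embryo 4. *Tap1*, a peptide transporter subunit, had 143, 145, 187 and 94.0 normalized counts in wild-type embryos 0, 1, 5 and 8, 555 and 279 in *Nprl3*-/- and 181 and 198 in Het. *Tapbp*, which loads the peptides, had 3182 and 2990 against 1152 to 1925, and *H2-K1*, a class I heavy chain, 5488 and 4046 against 1441 to 2954. The *Nprl3*-/- values were above all others in each of the 3 genes, and none passed the correction in edgeR, with log2 fold changes of 1.55 (SE 0.36), 0.92 (0.22) and 1.08 (0.28). Heavy chain genes are similar in sequence, so reads that matched several of them were not counted.

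The rest of the amino acid pathway to mTORC1 differed little. Over 42 tested genes of GATOR1, GATOR2, KICSTOR, the sensors, the Rag and Ragulator proteins, mTORC1 and TSC, the median log2 fold change was 0.01, with 3 not overlapping above wild-type, near the 6.85% of all genes, and 1, *Nprl3*, below. The median was 0.02 against embryos 1 and 5 and −0.02 against embryos 0 and 8. The other GATOR1 subunits, *Depdc5* and *Nprl2*, had log2 fold changes of −0.13 (SE 0.33) and 0.30 (SE 0.19), with *Nprl2* at 1429 and 1213 against 899 to 1165. *Castor2*, of the arginine sensor family, had 39.1 and 49.6 normalized counts in *Nprl3*-/- against 14.1 to 22.8 in wild-type and 34.7 and 10.6 in Het. *Deptor*, an mTOR inhibitor, stood just above the wild-type range at 415.1 and 427 against 296 to 414.7. *Rragb*, a Rag GTPase, had 183 and 139 against 173 to 276, and *Mtor* itself lay within the wild-type range at 299 and 412 against 262 to 527.

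ATF4 targets lay above wild-type by less than the interferon-stimulated genes did. Of 32 tested, 25 (78.1%) were above 0, the median log2 fold change was 0.24, 11 did not overlap above wild-type and 0 below, against 6.85% and 3.34% of all genes, and 10 reached an unadjusted p under 0.05, against 2.53%. The median was 0.40 against wild-type embryos 1 and 5 and 0.20 against embryos 0 and 8, so the larger difference was from the other pair than for the interferon-stimulated genes. *Atf4* itself overlapped, with 5267 and 7079 normalized counts in *Nprl3*-/- against 3504 to 6926 in wild-type, as did *Ddit3*, which encodes a stress factor. *Atf4* protein is set largely by translation, which these counts do not measure.

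*Trib3* had 90.2, 48.3, 53.9 and 118 normalized counts in wild-type embryos 0, 1, 5 and 8, 205 and 343 in *Nprl3*-/- embryos 2 and 9, and 51.6 and 52.9 in Het, and was the member that passed with sex as a covariate (log2 fold change 1.86 in that fit, adjusted p = 0.0450, edgeR). *Chac1*, which breaks down glutathione, had 19.3, 15.1, 12.4 and 23.7 in wild-type, 78.2 and 65.5 in *Nprl3*-/- and 17.8 and 15.3 in Het. *Cth*, which makes cysteine from cystathionine, had 218, 256, 256 and 160 in wild-type, 646 and 586 in *Nprl3*-/- and 237 and 295 in Het. In all 3 genes the *Nprl3*-/- libraries were above the 6 others. The log2 fold changes of *Chac1* and *Cth* were 2.02 (SE 0.37, adjusted p = 0.641, edgeR) and 1.47 (SE 0.25, adjusted p = 0.641).

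Amino acid transporters were uneven, 4 of 8 above 0 with a median of 0.00. *Slc7a3*, a cationic amino acid transporter that carries arginine, had 55.4, 17.1, 28.0 and 47.4 normalized counts in wild-type against 228 and 148 in *Nprl3*-/- and 44.8 and 30.6 in Het, a log2 fold change of 2.34 (SE 0.46, adjusted p = 0.658, edgeR). *Slc7a11*, the cystine transporter, had 73.2 and 77.0 against 6.15 to 32.2. Of the amino acid synthesis genes all 11 tested were above 0, with *Psat1* and *Phgdh*, of serine synthesis, at log2 fold changes of 0.23 and 0.22 and *Asns*, asparagine synthetase, at 0.29. The 20 cytosolic aminoacyl-tRNA synthetases had a median of 0.04, or 0.18 against embryos 1 and 5 and −0.05 against embryos 0 and 8, and 0 that did not overlap, *Sars1*, *Cars1* and *Nars1* having the smallest p at 0.304, 0.361 and 0.423. At S3, *Slc7a3* (log2 fold change 4.75, adjusted p = 0.00910), *Slc7a11* (3.60, 0.00428), *Trib3* (2.21, 0.00428) and *Cth* (1.99, 0.0133) passed the correction in edgeR, and the list's median was 0.70 over 30 genes.

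Glycolysis, which mTORC1 raises in many cell types, showed a mixed pattern. Of 31 tested genes 20 (64.5%) were above 0, the median log2 fold change was 0.29, and 8 did not overlap above wild-type, against 6.85% of all genes. The median was 0.21 against embryos 1 and 5 and 0.44 against embryos 0 and 8, and the summed level of the list in *Nprl3*-/- was 1.07 times that in embryos 1 and 5 and 1.44 times that in embryos 0 and 8, with a ratio of 1.34 between these wild-type pairs. *Pfkp*, the platelet-type phosphofructokinase, had 933, 1123, 1595 and 1089 normalized counts in wild-type embryos 0, 1, 5 and 8, 2236 and 1932 in *Nprl3*-/- and 1368 and 1337 in Het. Its values in *Nprl3*-/- were above all others, with a log2 fold change of 0.81 (SE 0.24, adjusted p = 1, edgeR), and at S3 it passed the correction (2.23, adjusted p = 0.00910). *Hk2*, an inducible hexokinase, stood at 698 and 628 against 238 to 567, *Pgk1* at 16056 and 14502 against 8398 to 14216, and *Hk3*, a hexokinase of myeloid cells, at 117 and 174 against 36.1 to 92.6. The glucose transporter *Slc2a1* and the main hexokinase *Hk1* overlapped.

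The 18 enzymes of the tricarboxylic acid cycle had a median of −0.01 and 0 that did not overlap, and *Idh3a*, *Idh2* and *Sdhd*, of the smallest p, had log2 fold changes of 0.12, 0.15 and 0.15. Sterol synthesis, another target of mTORC1 through SREBP2, had 21 of 27 above 0 (77.8%) and a median of 0.16, with 5 not overlapping above wild-type, against 6.85% of all genes, of which 2 also cleared both Het libraries (4.89% of all genes). *Mvd*, *Acat2* and *Fdps*, enzymes of the mevalonate route, stood at 479 and 389 normalized counts against 202 to 321, at 3921 and 3552 against 2899 to 3076 (3170 and 3781 in Het) and at 205 and 195 against 123 to 182. The median of the sterol list was 0.32 against embryos 1 and 5 and 0.02 against embryos 0 and 8. Lysosome and autophagy genes had 29 of 40 above 0 and a median of 0.06, which was 0.15 against embryos 1 and 5 and −0.03 against embryos 0 and 8. In 5 of them the *Nprl3*-/- libraries exceeded the wild-type range, against 6.85% of all genes, among them *Hexa* and *Neu1*, hydrolases of the lysosome, at log2 fold changes of 0.60 and 0.51 (SEs 0.20 and 0.23). None of these passed the correction in edgeR, with or without sex.

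**Figure D5:**
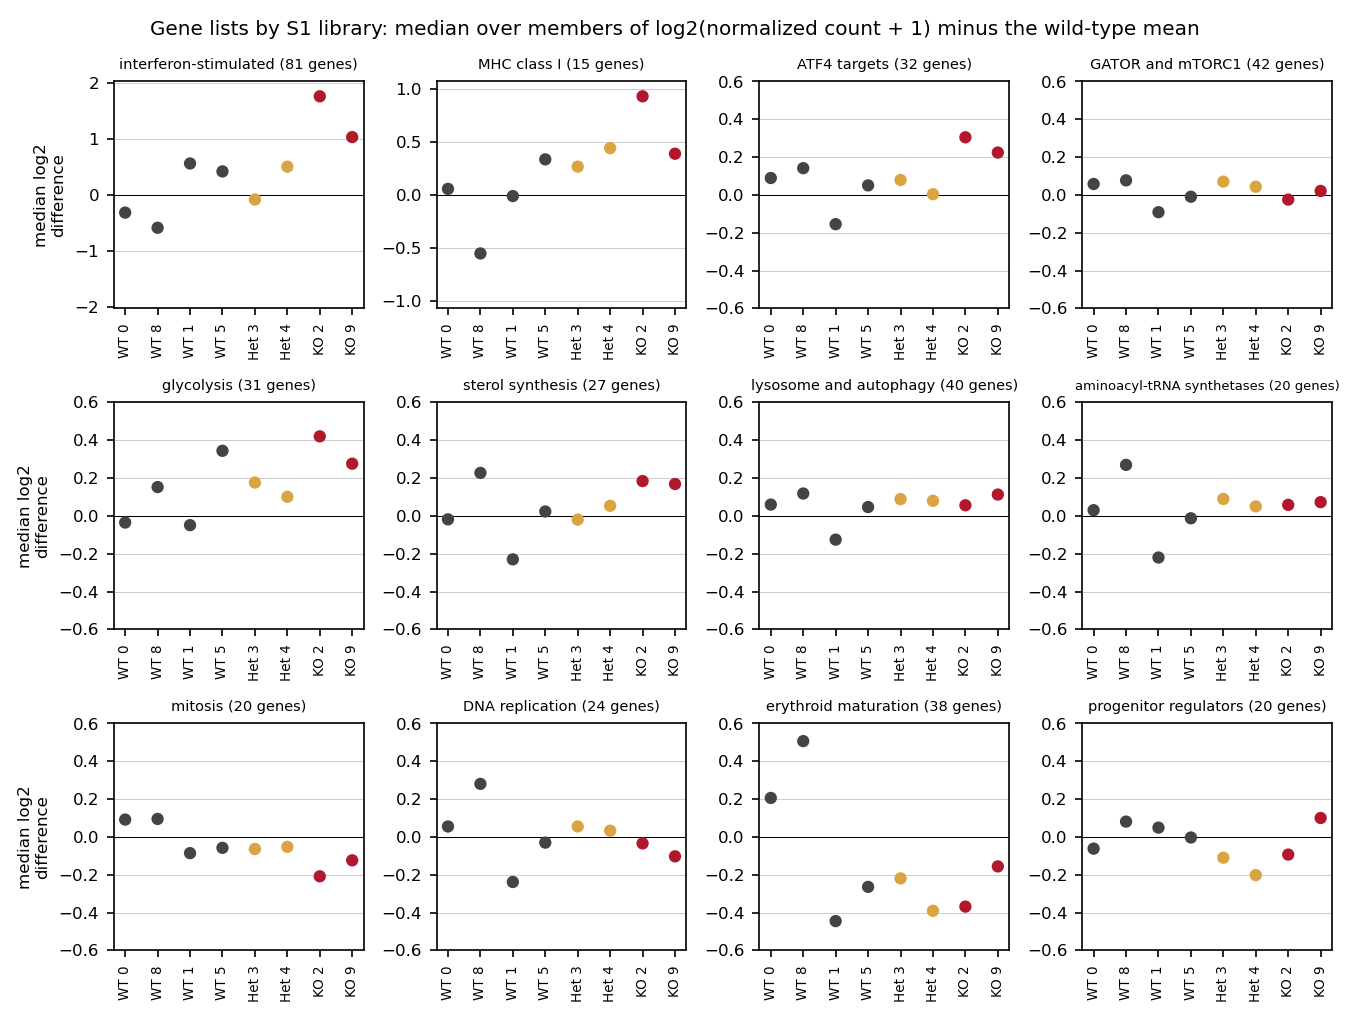
Scores of the gene lists in each S1 library, as the median over the list of log2(normalized count + 1) minus the wild-type mean. The interferon-stimulated score is 1.76 and 1.03 in *Nprl3*-/-, above all 6 other libraries, and the erythroid maturation score is highest in wild-type embryos 0 and 8.

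Erythroid maturation genes were lower against all wild-type libraries and not against embryos 1 and 5. Over 38 tested genes of transcription factors, iron uptake, haem synthesis, globin and membrane, 33 were below 0, and the median log2 fold change was −0.35. It was −0.68 against embryos 0 and 8 and 0.03 against embryos 1 and 5, and the fraction above 0 was 13.2%. Within females the median difference was −0.07 and within males −0.45. The library scores were 0.21 and 0.51 in wild-type embryos 0 and 8, −0.44 and −0.26 in embryos 1 and 5, −0.22 and −0.39 in Het, and −0.37 and −0.16 in *Nprl3*-/-.

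*Hbb-bs* had 101430, 16386, 26792 and 87511 normalized counts in wild-type embryos 0, 1, 5 and 8, 5671 and 24515 in *Nprl3*-/- embryos 2 and 9, and 8604 and 11908 in Het. The 2 highest libraries were again embryos 0 and 8, and *Nprl3*-/- embryo 9 lay between embryos 1 and 5. With sex as a covariate, so that embryo 2 is set beside embryos 1 and 5 and embryo 9 beside embryos 0 and 8, *Hbb-bs* and *Hba-a2* were called lower (edgeR adjusted p = 0.0289 and 0.0274). These calls thus rest in part on embryo 9 against the pair with the highest globin counts. The Het embryos, male and outside this fit, were below embryo 9 in both genes, with *Hba-a2* at 2262 and 2699 against 4747. Neither gene was called in edgeR with sex when wild-type embryo 0 was left out. *Alas2*, the erythroid enzyme that starts haem synthesis, had 472 and 1531 against 875 to 9321, and did not pass (adjusted p = 0.214 with sex). The members that did not overlap were *Alad*, *Kel* and *Bpgm*, against 3.34% of all genes in that direction, and of these *Alad* was also below both Het libraries.

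Regulators of progenitors had a median of −0.03 over 20 genes, with 4 above the wild-type range, against 6.85% of all genes, and medians of 0.07 against embryos 1 and 5 and 0.00 against embryos 0 and 8. *Gata2*, the factor that *Gata1* replaces as erythroid cells mature, had 452 and 363 normalized counts in *Nprl3*-/- against 196 to 318 in wild-type and 358 and 229 in Het. *Cd34*, of stem and progenitor cells, had 931 and 912 against 147 to 771, and its wild-type values followed the neutrophil markers, with 771 and 635 in embryos 1 and 5. The other 2 were *Spi1* and *Meis1*, and *Socs3*, a cytokine feedback inhibitor, overlapped at 12.03 and 22.1 against 13.1 to 79.9.

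Genes of cell division lay slightly below the 4 wild-type libraries together, and those of DNA replication not within females. All 20 mitosis genes were below 0 with a median of −0.15, although 8 of 20 were above 0 within females and 1 within males. In 3 the groups did not overlap, against 3.34% of all genes, among them *Kif23* and *Tpx2*, which organise the central spindle and the spindle poles, at 1366 and 1402 against 1718 to 2737 and at 4075 and 4302 against 4700 to 7274. Both Het libraries were below wild-type in these 2 genes as well, at 1583 and 1600 for *Kif23* and at 4565 and 4144 for *Tpx2*, where the lower one was below *Nprl3*-/- embryo 9. The medians against each pair were −0.10 and −0.30, for embryos 1 and 5 and embryos 0 and 8. DNA replication genes had 2 of 24 above 0 and a median of −0.11, but 0.06 against embryos 1 and 5 and −0.29 against embryos 0 and 8. Within females their median difference was 0.13, with 16 of 24 above 0, and within males −0.25, with 5 of 24, and *Pola1*, *Ccne2* and *Rrm2* overlapped. No gene of either list passed the correction in edgeR.

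Targets of p53 had a median of 0.09 over 20 genes, which was 0.28 against embryos 1 and 5 and −0.05 against embryos 0 and 8. Of them 4 did not overlap above wild-type, against 6.85% of all genes. *Pmaip1*, a pro-apoptotic BH3 protein gene, had 243 and 233 normalized counts against 131 to 148 in wild-type and 137 and 175 in Het. *Phlda3*, an inhibitor of AKT, had 334 and 274 against 185 to 247. *Perp* stood at 504 and 486 against 92.2 to 452, with the 2 lowest in embryos 0 and 8. Hypoxia targets had a median of 0.13 over 16 genes (0.23 and 0.12 against the same pairs), and 2 did not overlap above wild-type, against 6.85% of all genes. These were *Egln3*, the oxygen sensor that is itself induced, at 180.5 and 125 against 16.7 to 94.6, and *Bnip3*, of mitophagy, at 3091 and 2328 against 856 to 2271. *P4ha1* overlapped. Antioxidant genes had a median of −0.01 over 20 (0.13 and −0.09 against the same pairs), with 2 not overlapping above wild-type and 1 below, against 6.85% and 3.34% of all genes. *Hmox1*, the haem oxygenase, had 53.1 and 93.8 against 48.3 to 305 and a log2 fold change of −1.20 that became 0.37 against embryos 1 and 5 alone. *Gpx1*, the abundant glutathione peroxidase, overlapped.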

How the data were processed

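RNA was sequenced from sorted S1 and S3 erythroblasts, with 1 library for each embryo and stage. The authors deposited 1 table of raw counts per gene: per the labels and the study's methods, RNA from small numbers of sorted cells was amplified before library preparation, reads were aligned with STAR to mm39 and counted with featureCounts on Ensembl 104, ignoring strand and leaving out reads that matched several places or genes. The counts were used as deposited, and 4 further count columns of the table were not used. Amplified reads without molecular identifiers are not independent molecules, so depth covers counting error only.

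Genes with a mean over 10 normalized counts in the 6 libraries were kept (14039 of 55416). The test was edgeR 4.0.16's quasi-likelihood test (R 4.3.3) with TMM scaling, no covariate, and Benjamini-Hochberg adjustment over all genes tested at 0.05. That test reports no SE, so each SE given is the absolute log2 fold change divided by the square root of its F statistic. The study used DESeq2, which was an alternative here (1.42.0) with edgeR with sex as a covariate, other scalings and filters, added libraries, and libraries left out in turn. The comparison at S3 was a fit of its own, and the interaction of genotype and stage was fitted over 12 libraries. Group and replicate came from sample titles, since tissue and cell line fields named an embryonic stem cell line. The S1 libraries were from separate embryos, and no 2 held the same values, the highest Pearson correlation of log2(normalized count + 1) over the genes tested being 0.9893, or 0.9907 in log2 CPM.

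Libraries of the same number at the 2 stages came from the same embryo. Their deviations from the group means correlated at 0.0688, 0.225, 0.332 and 0.313 for wild-type embryos 0, 1, 5 and 8 and at 0.412 for the *Nprl3*-/- embryos.

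The gene lists, and the comparison itself, were chosen with earlier results of these data known, and lists were described by counts and medians with no test. Named genes were *Nprl3* and its neighbours, the 10 higher and 10 lower genes of smallest p among those whose groups did not overlap, the 3 genes of smallest p in each list (and in each role of the interferon-stimulated list), and the most abundant gene of each marker list. Some genes that this rule names are not reported here. Others are named to account for a role or a count, by value. Promoter windows came from RefSeq (GRCm38.p6) and were matched by symbol. In data simulated at this size with 14039 genes, the test recovered 100 of 100 genes changed 8-fold and 13 of 100 changed 2-fold at a biological variation of 0.3, with 3 false calls. The simulation gave every gene the same variation, changed only the more abundant genes and held no split within wild-type. It therefore does not give the recovery in these libraries, where *Isg15* and *Oas1g*, at log2 fold changes of 3.91 and 4.24, were not called without a covariate. The common biological coefficient of variation of these libraries was 0.325, and 0.257 with sex.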

Additional observations from a re-analysis of the deposited data

Results flagged for a closer look

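The effect of the deletion on *Nprl3* differed between the stages: its log2 fold change against wild-type was 5.17 higher at S3 than at S1 (SE 0.41, adjusted p = 0.000305, edgeR interaction of genotype and stage). Both *Nprl3*-/- embryos showed it, with 9.74 and 20.6 normalized counts at S1 and 3256 and 3377 at S3 on a scale common to all 16 libraries. The share of these S3 reads that came from transcripts starting within the gene was not tested here, while the paper's promoter-specific PCR assay detected no *Nprl3* mRNA in *Nprl3*-/- cells. In 101 groups of 4 wild-type values no single library stood apart by Dixon's criterion, where chance gives about 1 in 20, and a pair such as wild-type embryos 0 and 8 is not found by it.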

How the results depend on the processing

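The count of genes higher and lower in *Nprl3*-/- was 0 and 1. It was the same with edgeR's own expression filter, with upper-quartile or relative-log scaling, with the Het libraries in the fit, with the newer quasi-likelihood method, and with a log2 limit of 0.6. It was 5 and 2 without the filter on low counts, 18 and 3 with sex as a covariate, 37 and 8 in DESeq2, 119 and 52 in DESeq2 with sex, and 1 and 1 with all 16 libraries. Against wild-type embryos 1 and 5 alone it was 0 and 2, and against embryos 0 and 8 alone 235 and 37, alternatives chosen after seeing the data. With 1 library left out in turn, 0 to 1 gene was higher and 0 to 2 lower. The log2 fold change of *Nprl3* then ran from −6.39 to −5.30. The interaction of genotype and stage called 1 gene without a block, with sex, and with the embryo as a replicate block that pairs S1 with S3, where it was 5.19 for *Nprl3* (adjusted p = 6.184e-05, edgeR); the block changed no other call.

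The log2 fold change of *Snrnp25* turned to −0.0066 without wild-type embryo 8, the lowest of a range up to 0.26 with 1 library left out, and to −0.061 against embryos 1 and 5 alone. That of *Hba-x* turned to 0.49 without wild-type embryo 8, 0.17 without *Nprl3*-/- embryo 2 and 2.83 against embryos 1 and 5, within a range from −6.44 to 0.49 with 1 library left out, and that of *Hmox1* to 0.37 against embryos 1 and 5. The cause was not tested. Over all named genes other than *Nprl3*, 1182 alternative values kept direction and side of the threshold and 121 passed it where the value reported had not. Of the list medians, 281 moved by less than the spread between wild-type libraries and 7 by more. With 2 *Nprl3*-/- libraries, changes near 2-fold were mostly below what the test could call, and genes with few counts were not resolved. Larger changes, such as those of *Isg15* and *Oas1g*, were not called without a covariate either.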

Other observations

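A list of feedback inhibitors and early response genes of ERK signalling was drawn up after the value of *Spry4*, one of its members, was seen, so its values are a description with no test. Of 15 genes listed, 11 were tested, with a median log2 fold change of −0.62 against −0.01 over all genes. Both *Nprl3*-/- libraries lay below all 4 wild-type libraries in 7 of the 11, *Spry4* included, against 3.34% of all genes, and below both Het libraries too in 5, against 1.92%. They were *Spry4*, *Etv5*, *Egr1*, *Spred1*, *Spred2*, *Dusp6* and *Spry1*, with log2 fold changes of −1.85, −1.33, −1.07, −0.82, −0.62, −0.42 and −0.39. *Etv5*, a transcription factor induced by ERK, had 168, 111, 204 and 228 normalized counts in wild-type embryos 0, 1, 5 and 8, 75.2 and 66.4 in *Nprl3*-/- embryos 2 and 9, and 262 and 205 in Het. *Egr1*, an immediate early factor, had 49.1 and 46.0 in *Nprl3*-/- against 76.0 to 155 in wild-type and 170 and 74.1 in Het. The median was about the same against either wild-type pair, −0.59 against embryos 1 and 5 and −0.57 against embryos 0 and 8. No gene of the list was called in edgeR with or without sex, and 2 were called lower in DESeq2 with sex, against 0.385% of all genes.

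A few genes were on in some embryos and nearly off in others, with wild-type embryos on both sides, and were chosen after their values were seen. *Gm15915*, on chromosome 10, had 3617, 6515 and 5718 normalized counts in wild-type embryos 0, 1 and 5, 0.878 in wild-type embryo 8, 16.04 and 12.4 in *Nprl3*-/- embryos 2 and 9, and 5497 and 11041 in Het. *Ntn4*, a netrin gene whose span holds that of *Gm15915* on the opposite strand, had 109.5, 88.6 and 91.2 in wild-type embryos 0, 1 and 5, 5.27 in embryo 8, 7.02 and 3.54 in *Nprl3*-/-, and 94.7 and 213 in Het. Wild-type embryo 8 was thus low with the *Nprl3*-/- embryos. *Gm15915* was called lower in DESeq2 (adjusted p = 0.0269, and 0.0263 with sex) and in edgeR against embryos 1 and 5 alone (9.598e-05) and without wild-type embryo 8 (0.00264), but not in edgeR over all 6 libraries (adjusted p = 1.00, and 0.434 with sex). *Ntn4* was called lower in DESeq2 (adjusted p = 0.0392, and 0.00567 with sex). Both genes are 1 locus and the counting ignored strand, so they are not separate observations. *Gm4735* on chromosome 2 had 158 and 238 in wild-type embryos 0 and 8, 10948 and 6457 in embryos 1 and 5, 13880 and 336 in *Nprl3*-/- embryos 2 and 9, and 6329 and 7702 in Het. *Zfp990* on chromosome 4 had 5.15 and 6.15, 703 and 248, 581 and 9.74, and 251 and 235 in the same order. The *Nprl3*-/- embryos fell on opposite sides in these 2 genes, and both Het embryos, which are male, were on the high side.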
